A study of Mus musculus with 6 samples.

Results

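The 81 genes described here are the nuclear genes whose symbols and protein-coding biotype mark them as subunits of the oxidative phosphorylation complexes, out of 47122 genes measured. The rule that picks them uses names and biotype alone (symbols beginning Nduf, Cox, Uqcr, Sdh or Atp5 in set patterns) and no expression value. The rule was chosen with earlier results of these data known. They comprise 36 genes of complex I, 4 of complex II, 8 of complex III, 16 of complex IV and 17 of complex V. Ndufa4 was counted with complex IV, where its product is now placed. The members lie on 19 chromosomes, none of them the mitochondrial one.

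The samples were whole ovaries of mice at 1 day post partum (dpp), profiled by RNA sequencing of total RNA in 3 conditional knockout (cKO) libraries, in which Bcas2 was deleted in oocytes, and 3 wild-type (WT) libraries. Bcas2 is a component of a spliceosomal complex. The sources used here give neither the Cre driver, the exons removed nor the strain, and do not say whether a library held 1 animal or several. The p-values therefore reflect how these libraries scattered, and that scatter may be technical. A description in the labels speaks of granulosa cells, while titles and tissue give ovary. All 11 oocyte markers and all 10 pregranulosa markers listed for a check of the tissue passed the filter on low values. In a whole organ, fewer cells of a type and less RNA per cell cannot be told apart.

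Oxidative phosphorylation is the last stage of respiration in the inner mitochondrial membrane. Complexes I and II take electrons from NADH and succinate, complex III passes them by way of cytochrome c to complex IV, and complex IV reduces oxygen. Complexes I, III and IV pump protons, and complex V, the ATP synthase, lets them flow back to make ATP. A few subunits of complexes I, III, IV and V are encoded by the mitochondrial genome, and all others, including the whole of complex II, are nuclear and imported. In early oocytes of human and Xenopus, assembled complex I is known to be nearly absent.

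The promoters of these genes are a textbook case of coordinated nuclear control, so a few are shown before the values. Windows of 300 bases, from 250 before to 50 after the start site, were taken from the RefSeq promoter table for GRCm38.p6, which held 68 of the 81 members. Capitals mark exact matches, on either strand, to a nuclear respiratory factor 1 (NRF1) motif (GCGCA, any base, then GCGC), a GABPA motif, CCGGAAGT, a YY1 motif, AAGATGGCG, or a TATA box, TATAAA. None of these motifs contains another. The windows shown were not drawn at random: each holds a match, while many other member windows hold none. The windows below are of Ndufb4, the complex I member with the highest level (chr16:37654319-37654618, minus strand), Sdha, the catalytic subunit of complex II (chr13:74350191-74350490, minus strand), Cox8a, a widely expressed complex IV subunit (chr19:7217567-7217866, minus strand), Atp5h, a stalk subunit of the ATP synthase (chr11:115419870-115420169, minus strand), and Cox8b, the heart and muscle counterpart of Cox8a (chr7:140900397-140900696, minus strand).
Ndufb4: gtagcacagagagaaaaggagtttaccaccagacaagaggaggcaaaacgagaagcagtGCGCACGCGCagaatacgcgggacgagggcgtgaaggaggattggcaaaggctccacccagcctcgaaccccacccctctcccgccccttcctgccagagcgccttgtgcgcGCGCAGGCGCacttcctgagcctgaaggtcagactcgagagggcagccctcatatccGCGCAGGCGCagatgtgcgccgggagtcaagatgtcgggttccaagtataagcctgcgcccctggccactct
Sdha: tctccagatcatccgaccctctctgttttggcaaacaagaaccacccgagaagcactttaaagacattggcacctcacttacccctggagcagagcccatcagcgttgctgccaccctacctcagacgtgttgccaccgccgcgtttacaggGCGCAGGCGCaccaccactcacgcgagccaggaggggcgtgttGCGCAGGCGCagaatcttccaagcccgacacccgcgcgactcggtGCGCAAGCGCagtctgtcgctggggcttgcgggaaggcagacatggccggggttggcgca
Cox8a: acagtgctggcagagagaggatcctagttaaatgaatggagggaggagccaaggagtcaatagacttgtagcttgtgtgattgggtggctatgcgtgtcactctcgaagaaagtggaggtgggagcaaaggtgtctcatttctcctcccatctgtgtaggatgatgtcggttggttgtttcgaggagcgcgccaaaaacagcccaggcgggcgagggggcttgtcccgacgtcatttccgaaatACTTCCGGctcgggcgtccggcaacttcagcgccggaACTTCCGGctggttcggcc
Atp5h: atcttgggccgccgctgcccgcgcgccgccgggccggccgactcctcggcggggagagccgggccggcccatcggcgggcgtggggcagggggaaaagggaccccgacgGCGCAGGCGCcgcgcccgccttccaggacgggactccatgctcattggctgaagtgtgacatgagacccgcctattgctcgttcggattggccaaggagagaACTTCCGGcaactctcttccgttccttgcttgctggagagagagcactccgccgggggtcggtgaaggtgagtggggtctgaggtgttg
Cox8b: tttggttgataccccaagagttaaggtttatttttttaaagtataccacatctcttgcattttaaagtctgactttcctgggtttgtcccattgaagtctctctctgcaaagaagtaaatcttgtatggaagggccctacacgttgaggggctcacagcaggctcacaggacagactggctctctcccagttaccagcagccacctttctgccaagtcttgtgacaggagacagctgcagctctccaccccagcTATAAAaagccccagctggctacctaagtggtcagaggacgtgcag

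The NRF1 motif was found in 17 of the 68 member promoters (25.0%), against 11.4% of other tested genes and 5.19% of all genes with a promoter in the table. The Ndufb4 and Sdha windows each show several such matches, more than any other member window. The Atp5h window shows a match to NRF1 and another to GABPA. The GABPA motif was found in 5 of 68 (7.35%), against 9.04% of other tested genes and 4.31% of all genes. The YY1 motif was found in 7 (10.3%), against 3.50% and 1.64%, and TATAAA in 8 (11.8%), against 8.43% and 15.7%. The Cox8b window holds a TATA box and 2 CpG dinucleotides, while the median was 19 CpG in member windows, 20 in windows of other tested genes and 7 over all windows. These matches describe letters in the windows, and binding was not measured.

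Expression was deposited as FPKM, fragments scaled to gene length and to library size. Whole reads could be recovered from these values and numbered between 16800421 and 19565275 per library. Members took 0.837, 0.947 and 0.793% of the reads in cKO ovaries, against 0.646, 0.787 and 0.866% in WT ovaries. A gene was tested if it reached 1 FPKM in at least 3 of the 6 libraries, which 14589 genes did, among them 78 of the 81 members. The mean level of tested members over the 6 libraries ran from 1.28 to 337.7 FPKM with a median of 88.4 FPKM, and the library with the fewest reads for a member held between 7 and 11620 of them. Bcas2 was at 18.9, 21.9 and 18.3 FPKM in cKO ovaries and at 54.5, 37.5 and 35.7 FPKM in WT ovaries (limma log2 fold change -1.05, p = 0.000502 as a single test; exact permutation p = 0.1, the smallest possible with 3 against 3; adjusted p = 0.955 over all genes).

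No member passed the test in either direction. With limma on log2(FPKM + 1) and Benjamini-Hochberg adjustment over all tested genes, 0 of 78 members were higher and 0 were lower in cKO at an adjusted p under 0.05, where the share over all tested genes was also 0%. At an unadjusted p under 0.05, 0 members were higher and 0 were lower, against 1.89% of all tested genes higher and 1.14% lower. The smallest unadjusted p among members was 0.0615. The 95% interval of the log2 fold change included 0 for all 78 members and reached a median of 0.43 to either side of the estimate. Differences below that size were mostly not detectable even without adjustment. The interval is not adjusted for the number of genes, so larger differences could fail the adjusted test too. Bcas2, with a log2 fold change of -1.05, had an adjusted p of 0.955 in limma.

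Most members nevertheless had a log2 fold change above 0: 70 of 78 did, against 48.7% of all tested genes. Other short protein-coding genes were mostly above 0 too. Among those under 600 bases 135 of 151 were, and among those from 600 up to 1000 bases 361 of 418. Of those of 1000 bases or more 5250 of 11747 were, against 28 of 33 members of that length. The median log2 fold change of the members was 0.24 (lowest -0.41, highest 0.51), against -0.01 over all tested genes. By complex the medians were 0.25 for complex I, 0.05 for complex II, 0.24 for complex III, 0.29 for complex IV and 0.16 for complex V. In spite of that shift the groups overlapped for 77 members, and the exception was Ndufa13. Thus 1 member had non-overlapping groups with cKO higher, against 4.2% of all tested genes, and 0 with cKO lower, against 3.67%. Leaving out single libraries moved these figures: the median became 0.10 without WT replicate 1 and 0.12 without cKO replicate 2. With 3 libraries against 2, groups without overlap are commoner among all genes too, so each count is set beside the share of all tested genes in the same setting. Non-overlapping members higher in cKO numbered 35 without cKO replicate 3 (44.9%, against 11.1% of all genes) and 17 without WT replicate 3 (21.8%, against 13.6%). They numbered 3 without WT replicate 2 (3.85%, against 8.86%) and 2 without cKO replicate 1 (2.56%, against 7.86%). Non-overlapping lower members numbered 3 without cKO replicate 3 (against 11.9% of all genes), 2 without cKO replicate 2 (against 5.73%), and 1 without WT replicate 1 (against 8.37%) or WT replicate 2 (against 8.48%). At an unadjusted p under 0.05, 15 members were higher without cKO replicate 3 (19.2%, against 2.97% of all genes) and 5 without WT replicate 3 (6.41%, against 3.28%). At that threshold 1 was lower without cKO replicate 3 (1.28%, against 1.84%) or WT replicate 2 (1.28%, against 1.14%). The members called at an adjusted p stayed at 0 in each of these.

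**Figure D1:**
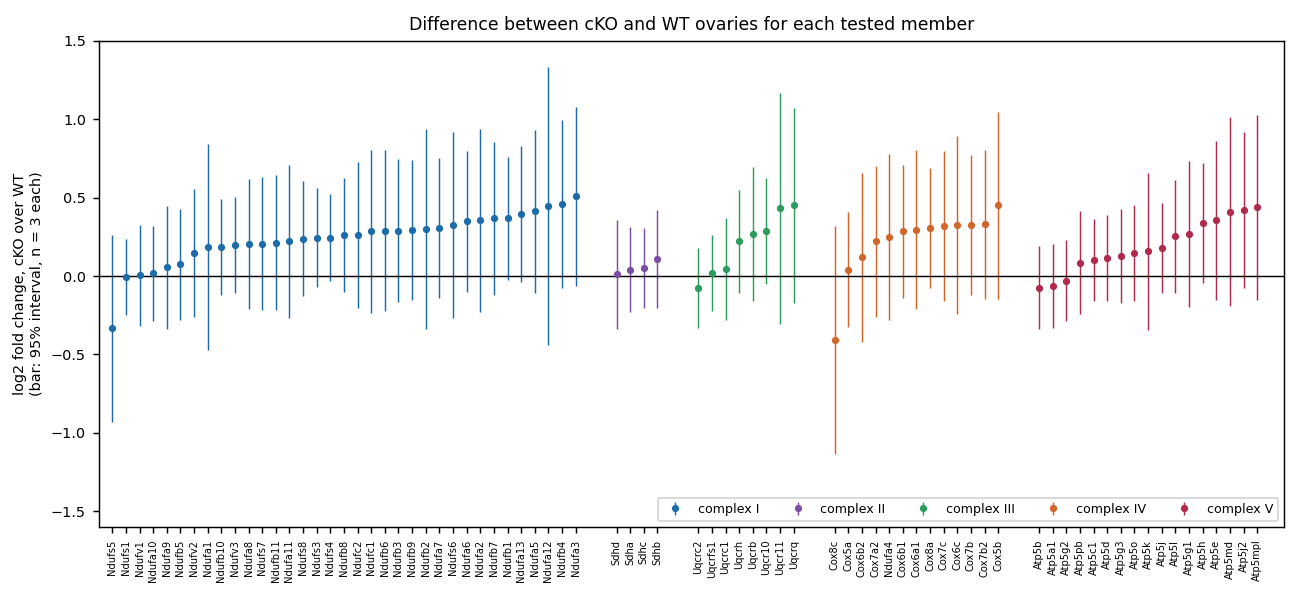
Log2 fold change (cKO over WT, on the log2(FPKM + 1) scale) of the tested members, 1 of which is not drawn, grouped by complex and ordered by size within it. Points are limma estimates and bars are 95% intervals (n = 3 libraries each). Over all 78 tested members, 70 estimates lie above 0 and every interval includes 0.

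The plot of fold changes by complex shows that the shift was spread over complexes I, III, IV and V, while the 4 points of complex II lie close to 0. The widest bars are those of Ndufa12, Uqcr11 and Cox8c.

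Complex I, the NADH dehydrogenase, has a core shared with bacteria and many accessory subunits around it. Of its 36 members 0 passed the test, and 33 had a log2 fold change above 0. The median was 0.15 for the 7 nuclear core subunits and 0.29 for the 29 accessory subunits. Ndufb4 (chromosome 16, 37467964 to 37474730, minus strand, GRCm39), an accessory subunit of the membrane arm and the complex I member with the highest level, was at 146.5, 178.2 and 120.2 FPKM in cKO ovaries and at 78.6, 114.4 and 133.6 FPKM in WT ovaries. Its highest value was that of cKO replicate 2 and its lowest that of WT replicate 1, and the groups overlapped (log2 fold change 0.46, SE 0.23, limma adjusted p = 0.955). Ndufb1, a small accessory subunit with the smallest p of all members, was at 62.6, 74.1 and 49.8 FPKM in cKO ovaries and at 41.0, 50.1 and 51.6 FPKM in WT ovaries. Its cKO replicate 3 lay within the WT values (log2 fold change 0.37, SE 0.17, adjusted p = 0.955 in limma).

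Ndufa13 (chromosome 8, 70346813 to 70355208, minus strand), an accessory subunit also known as GRIM-19, was at 30.3, 42.3 and 31.6 FPKM in cKO ovaries and at 20.5, 29.4 and 28.7 FPKM in WT ovaries. Every cKO value exceeded every WT value (log2 fold change 0.39, SE 0.18, limma adjusted p = 0.955). Ndufa3, another small accessory subunit, was at 110.0, 130.2 and 79.4 FPKM in cKO ovaries and at 54.1, 82.5 and 87.5 FPKM in WT ovaries. It had the largest log2 fold change of the members, 0.51 (SE 0.24), with overlapping groups. The difference between core and accessory subunits was not tested. Among core subunits, all chosen after their values were seen, Ndufs3 and Ndufs8, both of the peripheral arm, had log2 fold changes of 0.24 each, at the median of all members. Ndufs1, the largest iron-sulfur subunit, was at 32.1, 33.6 and 35.2 FPKM in cKO ovaries and at 31.2, 32.9 and 37.6 FPKM in WT ovaries (log2 fold change -0.01, 95% interval -0.25 to 0.23). Ndufv1, the NADH-binding subunit, had a log2 fold change of 0.01 with a 95% interval of -0.32 to 0.33.

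Complex II, succinate dehydrogenase, is the member of the chain shared with the citrate cycle. None of its 4 genes passed, and all 4 log2 fold changes lay between 0.01 and 0.11. Sdha, the flavoprotein that oxidises succinate, was at 92.4, 92.4 and 105.1 FPKM in cKO ovaries and at 84.3, 93.2 and 104.8 FPKM in WT ovaries. The groups overlapped almost throughout (log2 fold change 0.04, 95% interval -0.23 to 0.31). Sdhb, the iron-sulfur subunit, averaged 106.4 ± 14.8 FPKM in cKO and 98.4 ± 9.15 FPKM in WT (SD, n = 3 each). Sdhc, a membrane anchor, averaged 97.1 ± 8.39 FPKM in cKO and 93.7 ± 7.26 FPKM in WT (SD, n = 3 each). The median of 0.05 turned to -0.03 with the trend with gene length removed, -0.04 after rescaling to TPM and -0.01 without WT replicate 1 or without cKO replicate 2.

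Complex III, the cytochrome bc1 complex, had 8 members with 0 passing and 7 above 0. Uqcrh, the hinge protein that binds cytochrome c1 and the most abundant member here, was at 227.8, 238.5 and 202.4 FPKM in cKO ovaries and at 162.5, 195.7 and 217.6 FPKM in WT ovaries. WT replicate 1 was the lowest and the other libraries interleaved (log2 fold change 0.22, SE 0.14). Uqcrq, a small subunit of the membrane part, was at 52.0, 74.6 and 45.0 FPKM in cKO ovaries and at 28.5, 46.6 and 50.5 FPKM in WT ovaries (log2 fold change 0.45, SE 0.26). Uqcr10, another small subunit, averaged 106.1 ± 16.3 FPKM in cKO and 86.6 ± 9.91 FPKM in WT (SD, n = 3 each; limma adjusted p = 0.955). The large core subunit Uqcrc2, chosen after its values were seen, had a log2 fold change of -0.08 with a 95% interval of -0.33 to 0.18.

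Complex IV, cytochrome c oxidase, had 13 tested members, 0 of which passed and 12 of which were above 0. Cox6c, its most abundant member, was at 315.0, 445.8 and 307.1 FPKM in cKO ovaries and at 202.5, 338.1 and 319.0 FPKM in WT ovaries. The cKO replicates 1 and 3 lay below WT replicates 2 and 3, so only the extremes separated (log2 fold change 0.33, SE 0.24). Cox8a, a small membrane subunit with the smallest p of the complex, was at 137.7, 180.6 and 147.7 FPKM in cKO ovaries and at 103.6, 144.2 and 129.2 FPKM in WT ovaries (limma adjusted p = 0.955). Cox5b, a peripheral matrix-side subunit, averaged 141.6 ± 31.4 FPKM in cKO and 104.8 ± 29.6 FPKM in WT (SD, n = 3 each; log2 fold change 0.45).

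Complex V, the ATP synthase, had 17 members with 0 passing and 14 above 0. Atp5b, the catalytic beta subunit of the F1 head and the member with the highest level of all 81, was at 309.6, 321.5 and 356.2 FPKM in cKO ovaries and at 334.3, 334.1 and 370.5 FPKM in WT ovaries (log2 fold change -0.07, 95% interval -0.34 to 0.19). Its partner in the head, the alpha subunit Atp5a1, chosen after its values were seen, had a log2 fold change of -0.06. The medians were 0.10 for the 5 F1 genes, 0.13 for the 3 genes of the c ring, 0.16 for the 4 stalk genes and 0.41 for the 5 small membrane subunits. Among the small membrane subunits, Atp5j2 was at 305.3, 359.1 and 251.2 FPKM in cKO ovaries and at 170.5, 252.6 and 264.4 FPKM in WT ovaries (limma adjusted p = 0.955). Here cKO replicate 3 lay below both WT replicates 2 and 3. The stalk subunit Atp5h averaged 142.1 ± 25.7 FPKM in cKO and 111.7 ± 13.6 FPKM in WT, and the membrane subunit Atp5mpl 82.1 ± 18.1 and 61.0 ± 17.0 FPKM (SD, n = 3 each).

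Subunit c, which forms the rotating ring, is made from 3 genes whose mature proteins are identical and whose import sequences differ. Atp5g2 supplied 48.9, 48.0 and 48.9% of their summed FPKM in cKO ovaries and 54.9, 50.9 and 50.4% in WT ovaries. Atp5g3 supplied 35.2, 36.4 and 37.4% in cKO ovaries and 34.1, 35.7 and 34.8% in WT ovaries, and Atp5g1 the rest. All 3 cKO shares of Atp5g2 lay below all 3 WT shares, a difference noticed after the values were seen and not tested. The level of Atp5g2 itself was 219.4 ± 18.5 FPKM in cKO and 223.6 ± 12.2 FPKM in WT (SD, n = 3 each; log2 fold change -0.03, 95% interval -0.29 to 0.23), and that of Atp5g1 was 67.9 ± 10.1 FPKM in cKO and 56.9 ± 13.6 FPKM in WT.

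Members moved together from library to library, with their extremes in cKO replicate 2 and WT replicate 1. In cKO replicate 2 the median member stood 0.37 above its own mean over the 6 libraries on the log2 scale, and in WT replicate 1 it stood 0.35 below. The other libraries lay between, at 0.08 and -0.08 in cKO replicates 1 and 3 and at -0.04 and 0.08 in WT replicates 2 and 3. Of 78 members, 61 were highest in cKO replicate 2, 67 were lowest in WT replicate 1 and 55 were both. Over all tested genes 21.5% were highest in cKO replicate 2 and 28.5% were lowest in WT replicate 1. The pattern was not particular to the members. Of 151 other tested protein-coding genes under 600 bases, 100 were highest in cKO replicate 2 and 102 were lowest in WT replicate 1. Of 83 tested cytosolic ribosomal protein genes, 64 and 65 were. The mean log2 level of all tested members was 6.42 ± 0.21 in cKO and 6.21 ± 0.23 in WT (SD, n = 3 each), and the 3 libraries of each group overlapped. Among the 11 members that were not lowest in WT replicate 1 were Ndufs5, Cox8c, Sdhc, Atp5b, Atp5a1 and Atp5g2.

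**Figure D2:**
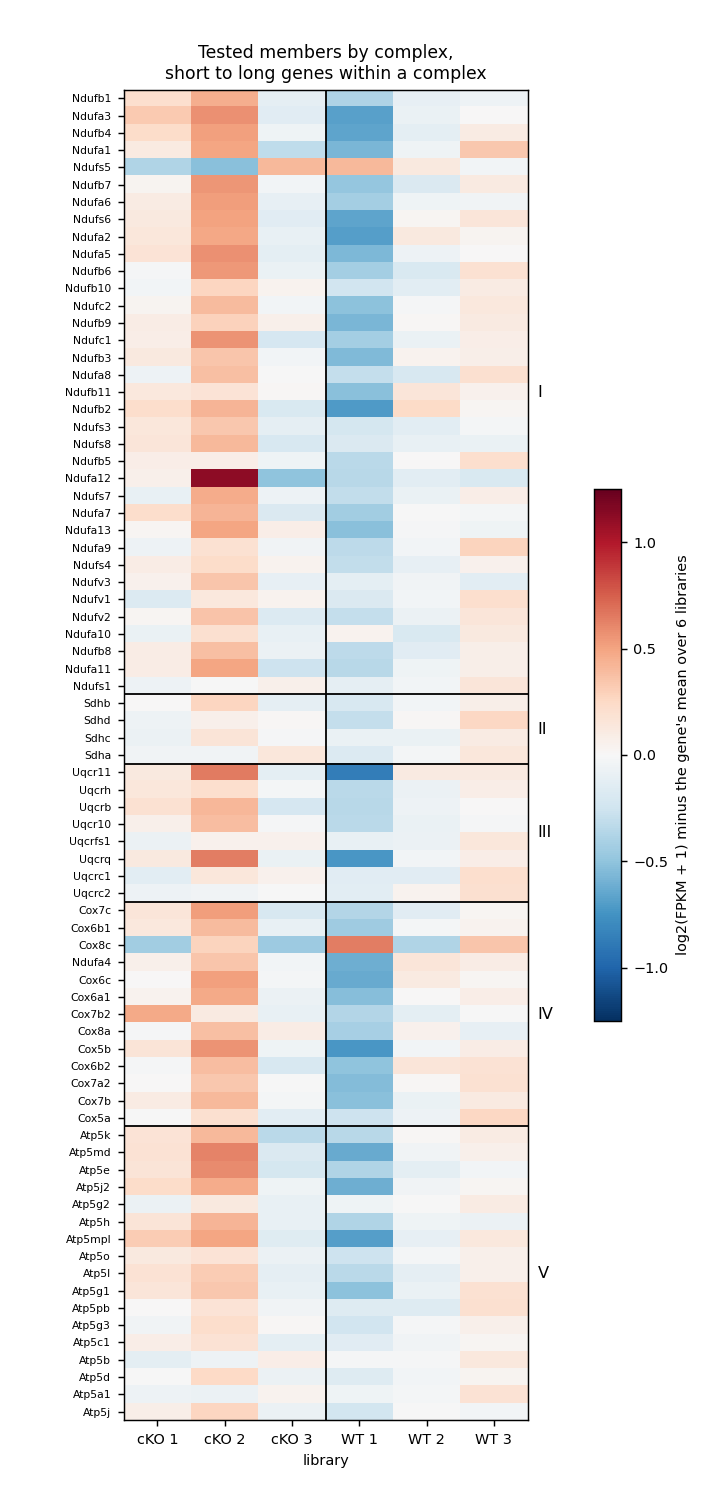
Level of the tested members, 1 of which is not drawn, in each library as the difference from its mean over the 6 libraries (log2(FPKM + 1), colour scale), with cKO left of WT and genes ordered from short to long within each complex. Over all 78 tested members, 71 lie above their mean (red) in cKO 2 and 75 below it (blue) in WT 1.

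In the heat map by library, the rows of Ndufs5 and Cox8c run against most of their complexes in WT replicate 1, and the colours fade towards the long genes at the foot of each block. The 2 libraries at the extremes of the members also differed in markers of other cells. The 9 erythroid markers, all tested, summed to 699, 13703 and 1235 FPKM in cKO ovaries and to 405, 492 and 1201 FPKM in WT ovaries. The 10 endothelial markers, all tested, summed to 70.3, 55.6 and 61.4 FPKM in cKO ovaries and to 195.5, 71.0 and 46.9 FPKM in WT ovaries. The 9 stroma markers, all tested, summed to 534, 412 and 466 FPKM in cKO ovaries and to 1418, 672 and 412 FPKM in WT ovaries. None of these markers was at 0 in any library. Oocyte markers summed to 1285, 1517 and 1135 FPKM in cKO ovaries and to 1026, 1066 and 1539 FPKM in WT ovaries. Of 8 mesonephros and oviduct epithelium markers 6 were tested, with a median log2 fold change of 0.44 and 4 above 0. Groups did not overlap, with cKO higher, for 3 of them (against 4.2% of all tested genes). At an unadjusted limma p under 0.05, 3 were higher (against 1.89%) and 0 lower (against 1.14%). The part of these cells in the members' levels was not tested.

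Short members lay further from 0 than long ones. Among members under 600 bases the median log2 fold change was 0.33 (25 tested), among those from 600 up to 1000 bases 0.26 (20 tested) and among those of 1000 bases or more 0.10 (33 tested). Other protein-coding genes of the same lengths had medians of 0.31 (151 tested), 0.19 (418 tested) and -0.02 (11747 tested). The correlation of log2 fold change with log10 gene length was r = -0.44 and rho = -0.57 over the 78 members, and r = -0.38 and rho = -0.43 over 12316 other protein-coding genes. These are correlations across genes that share the same 6 libraries, given as a description. With the trend with gene length removed within each library, the median of the members was 0.09, against 0.01 over all genes, and 57 of 78 were above 0. After rescaling to TPM it was 0.17, against -0.08 over all genes.

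**Figure D3:**
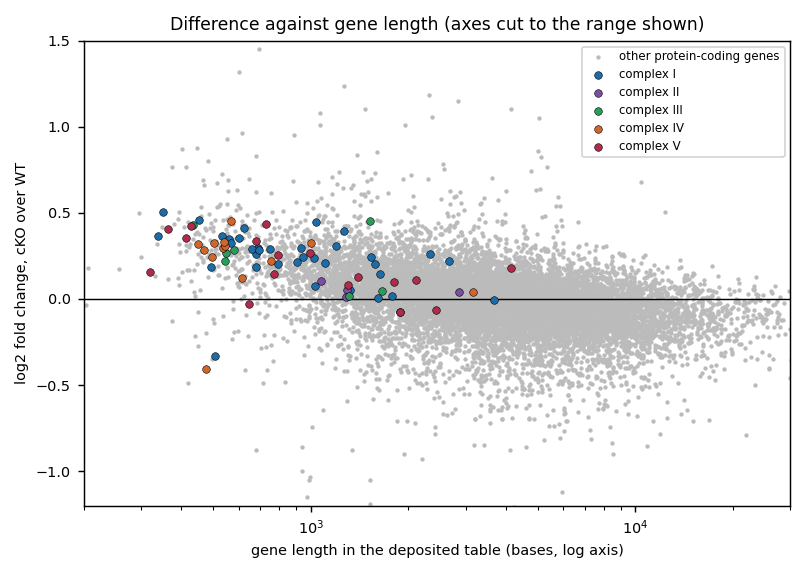
Log2 fold change (cKO over WT) against gene length (log axis, bases) for the tested members, 1 of which is not drawn, coloured by complex, and for 12316 other tested protein-coding genes in grey; a few grey points lie outside the axes. Members under 600 bases have a median of 0.33 and members of 1000 bases or more a median of 0.10.

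The plot against length places the members inside the cloud of other genes of their size, with Ndufs5 and Cox8c at its lower edge. The complexes differ in length too: the median length of tested members was 543 bases for complex IV, 792 for complex V, 922 for complex I, 948 for complex III and 1290 for complex II. Within complex I it was 1608 bases for the core and 694 for the accessory subunits.

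Ndufs5 and Ndufa12 were read together with their pseudogenes, which was decided after their values were seen. Many short members have processed pseudogenes, copies of the spliced mRNA elsewhere in the genome that can take up reads of the parent. The deposited table has 81 pseudogene rows that carry the protein entry of a member, for 32 members, and 14 of them averaged 1 FPKM or more while 32 were at 0 in all libraries. Ndufs5 (chromosome 4, 123606503 to 123611979, minus strand), a small accessory subunit, was at 54.1, 48.8 and 93.9 FPKM in cKO ovaries and at 93.9, 77.1 and 69.2 FPKM in WT ovaries. The row Ndufs5-ps (chromosome 16, 42775943 to 42776442, plus strand, GRCm39) was at 64.8, 100.05 and 6.59 FPKM in cKO ovaries and at 4.71, 19.8 and 50.6 FPKM in WT ovaries. The order of the 6 libraries by the pseudogene was the exact reverse of their order by Ndufs5, and the pseudogene held from 4.69% to 66.8% of the reads of the pair. The sum of both was 118.9, 148.8 and 100.5 FPKM in cKO ovaries and 98.6, 96.9 and 119.8 FPKM in WT ovaries. The log2 fold change was -0.33 (95% interval -0.93 to 0.26) for Ndufs5 alone and 0.21 (95% interval -0.18 to 0.60, limma adjusted p = 0.955) for the sum.

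**Figure D4:**
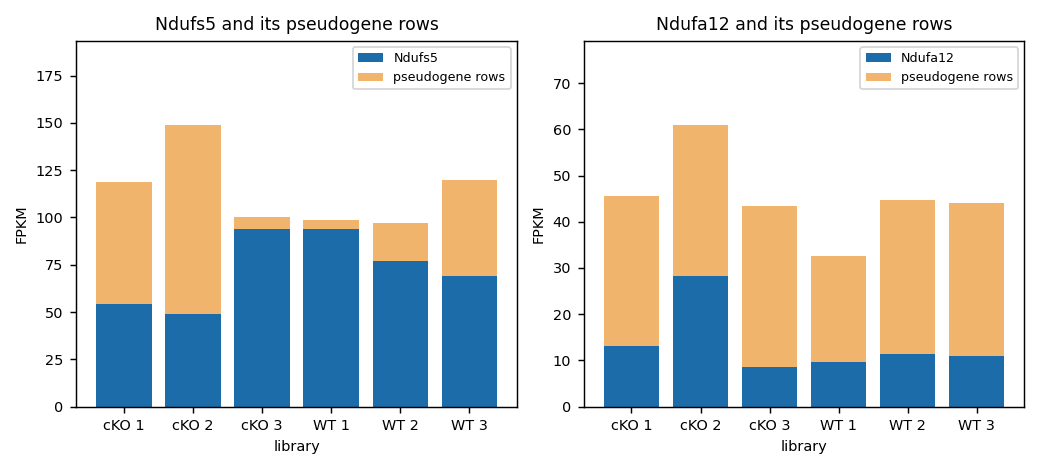
FPKM of Ndufs5 (left) and Ndufa12 (right) with the pseudogene rows of the same protein entry stacked on top, in the 3 cKO and the 3 WT libraries. Ndufs5 alone runs from 48.8 to 93.9 FPKM and its pseudogene from 4.71 to 100.05 FPKM.

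As the stacked bars show, Ndufa12, another accessory subunit, was at 13.1, 28.2 and 8.50 FPKM in cKO ovaries and at 9.58, 11.3 and 10.9 FPKM in WT ovaries. Its pseudogene row Ndufa12-ps was at 32.5, 32.7 and 34.9 FPKM in cKO ovaries and at 23.0, 33.4 and 33.1 FPKM in WT ovaries. The pseudogene share of reads was 54.2, 35.5 and 66.2% in cKO ovaries and 53.4, 58.4 and 59.2% in WT ovaries. Ndufa12 alone had a log2 fold change of 0.45 and the sum 0.30, with neither passing the test. The sources used here do not say how reads were split between parent and copy, so the values of both genes are uncertain. The same limit holds for other members with expressed pseudogene rows. Such rows held 24.0 to 29.3% of the reads for Atp5l, 16.5 to 21.6% for Atp5h and 8.11 to 10.5% for Cox5b. For the members as a group, adding the pseudogene rows left the median at 0.24 and put 71 of 78 above 0. Among all members, with or without pseudogene rows, 13 overlap a protein-coding gene on the other strand. They include Ndufa13, Ndufb1 and Atp5j, a stalk subunit that overlaps Gabpa. No source used here gives the strand setting.

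Several complex IV subunits come in a widely expressed and a tissue-restricted form, and the newborn ovary used mainly the widely expressed ones. Cox6b2, known from testis, was the best expressed tissue form, at 33.1, 44.0 and 29.0 FPKM in cKO ovaries and at 23.2, 37.1 and 37.8 FPKM in WT ovaries. It made up 17.2 ± 0.752% of the FPKM of Cox6b1 and Cox6b2 in cKO and 18.9 ± 1.38% in WT (SD, n = 3 each). Its log2 fold change of 0.12 turned to -0.08 with the length trend removed, -0.10 without WT replicate 1 and -0.04 without cKO replicate 2. Cox8c, another testis form, was at 5.08, 8.99 and 4.99 FPKM in cKO ovaries and at 11.8, 5.32 and 9.46 FPKM in WT ovaries, and it had the lowest log2 fold change of all members, -0.41 (95% interval -1.14 to 0.32). Unlike most members it was highest in WT replicate 1, and it rested on 42 to 98 reads per library. Cox7b2, a testis form of Cox7b, was at 2.12, 1.42 and 1.09 FPKM in cKO ovaries and at 0.740, 1.06 and 1.23 FPKM in WT ovaries, on 7 to 20 reads. It made up 1.76% to 3.20% of its pair.

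**Figure D5:**
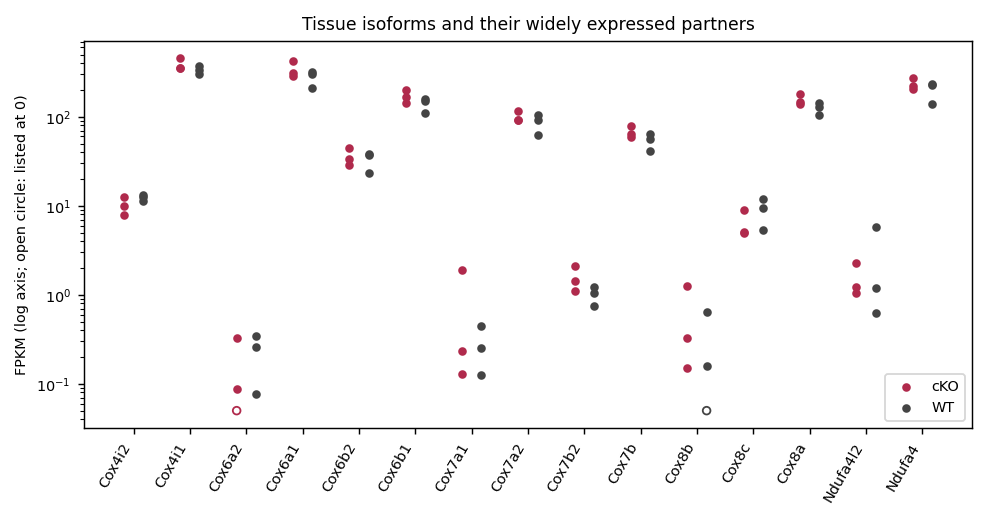
FPKM (log axis) of tissue forms of complex IV subunits, of Ndufa4l2 and of their widely expressed partners, with 3 cKO points left of 3 WT points for each gene and open circles for values listed at 0. Cox6b2 lies between 23.2 and 44.0 FPKM and the muscle forms Cox6a2, Cox7a1 and Cox8b below 2 FPKM.

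The plot of tissue forms shows the 3 members that did not pass the filter, which are the heart and skeletal muscle forms. Cox7a1 was at 1.88, 0.129 and 0.235 FPKM in cKO ovaries and between 0.125 and 0.445 FPKM in WT ovaries. Cox8b was at 1.27, 0.327 and 0.149 FPKM in cKO ovaries and at 0.158 and 0.635 FPKM in WT replicates 1 and 2, and was listed at 0 in WT replicate 3. Both were highest in cKO replicate 1, where they rested on 15 and 8 reads. Cox6a2 was listed at 0 in cKO replicate 2 and stayed at or below 0.348 FPKM in the other libraries. Of 6 brown fat markers 0 passed the filter and of 9 striated muscle markers 1 did, Actn3.

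The name rule left out Cox4i1, Cox4i2 and Ndufa4l2, which belong to these pairs. Cox4i1 was at 350.2, 452.8 and 348.7 FPKM in cKO ovaries and at 301.9, 332.4 and 367.9 FPKM in WT ovaries. Cox4i2, a lung form that responds to low oxygen, made up 2.62 ± 0.721% of its pair in cKO and 3.61 ± 0.577% in WT (SD, n = 3 each; log2 fold change -0.28, limma adjusted p = 0.955). Ndufa4l2, a hypoxia-induced relative of Ndufa4, was at 1.05, 1.24 and 2.30 FPKM in cKO ovaries and between 0.622 and 5.83 FPKM in WT ovaries. Its high value was that of WT replicate 1, and its log2 fold change was -0.23 with that library and 0.39 without it. Cox6c2, which carries a pseudogene biotype and was left out for that reason, stayed below the filter.

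Other genes of respiration were set beside the members. The mitochondrial genome's own 13 protein-coding genes, whose products join the nuclear subunits in complexes I, III, IV and V, had a median log2 fold change of 0.27, with 11 of 13 above 0. At an unadjusted p under 0.05, 2 of them were higher in cKO and 0 lower, against 1.89% and 1.14% of all tested genes. ND4L, a small complex I subunit, was at 31.8, 30.6 and 36.4 FPKM in cKO ovaries and at 19.5, 24.6 and 25.2 FPKM in WT ovaries without overlap (log2 fold change 0.50, limma adjusted p = 0.955). ATP6, the proton channel subunit of the ATP synthase, was at 110.5, 143.3 and 80.0 FPKM in cKO ovaries and at 54.9, 71.4 and 87.0 FPKM in WT ovaries. It too was highest in cKO replicate 2 and lowest in WT replicate 1, as 9 and 12 of the 13 genes were.

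The 8 subunits and carriers left out by the name rule had a median log2 fold change of 0.10. Among them Cox7a2l, a supercomplex assembly protein, had non-overlapping groups, at 174.0, 181.4 and 177.9 FPKM in cKO ovaries and at 167.1, 165.8 and 172.2 FPKM in WT ovaries, with a log2 fold change of 0.08 (chosen after its values were seen). Groups without overlap, with cKO higher, were seen for 4.2% of all tested genes. Of 50 assembly factors 48 were tested, with a median of 0.09 and 36 above 0. At an unadjusted p under 0.05, 0 were lower (against 1.14% of all tested genes) and 1 was higher (against 1.89%). That gene, Uqcc3, which helps to build complex III, was at 20.8, 25.1 and 23.6 FPKM in cKO ovaries and at 16.9, 20.2 and 18.9 FPKM in WT ovaries (log2 fold change 0.30, adjusted p = 0.955 in limma). Ndufaf8, a complex I assembly factor, had a log2 fold change of 0.44 with overlapping groups.

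Regulators of mitochondrial biogenesis had 10 of 12 genes tested, a median of -0.02 and 5 above 0. Those with the smallest p were Gabpb1, a partner of GABPA, with a log2 fold change of 0.15, and Esrra, an orphan nuclear receptor, with 0.17. The coactivators Ppargc1a and Ppargc1b stayed below the filter, at no more than 0.509 FPKM in any library. The 13 citrate cycle genes, which feed the chain, had a median of -0.01 with 5 above 0, and those with the smallest p were Mdh2 and Fh1, with log2 fold changes of 0.17 and 0.14. The 78 mitochondrial ribosomal protein genes had a median of 0.14 with 66 above 0. At an unadjusted p under 0.05, 3 were higher (against 1.89% of all tested genes), among them Mrpl53 and Mrps11, and 1 was lower (against 1.14%). The cytosolic ribosomal protein genes, which like the members are short and abundant, had 83 of 85 tested, a median of 0.25 and 77 above 0. Groups did not overlap, with cKO higher, for 17 of the tested ones (against 4.2% of all tested genes), and with cKO lower for 1 (against 3.67%). At an unadjusted p under 0.05, 5 were higher (against 1.89%), with Rpl22l1 at the smallest p, and 1 was lower (against 1.14%). The lower one was Rpl34, at 6.64, 9.09 and 7.11 FPKM in cKO ovaries and at 250.1, 85.0 and 8.96 FPKM in WT ovaries. Its near copy Rpl34-ps1, with the same protein entry in the table, was at 991.7, 1052 and 961.9 FPKM in cKO ovaries and at 17.9, 661.3 and 961.1 FPKM in WT ovaries. The copy was lowest where Rpl34 was highest, so the value of Rpl34 is uncertain in the way of Ndufs5. In each of these lists 0 genes passed at an adjusted p under 0.05, and no difference between a list and the members was tested.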

How the data were processed

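The authors deposited FPKM for each gene model in 3 cKO and 3 WT libraries, with gene length, symbol, biotype, description and coordinates. The submitters' processing notes name HISAT2 2.0.5 as a tool and mm10 and GRCm39 as builds; the table's coordinates are on GRCm39 accessions. How fragments were counted, on which annotation and strand, and with which filters, is not given in the sources used. Groups came from the sample titles.

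FPKM times gene length, divided by a step per library, gave whole reads: 100% of values above 0 (up to 20000 reads) lay within 0.05 of a whole number. These reads gave the depth and a limma-voom alternative, which called 0 genes. The main test was limma 3.58.1 in R 4.3.3 (lmFit, eBayes with trend, two-sided) on log2(FPKM + 1), for genes at 1 FPKM or more in at least 3 libraries, with Benjamini-Hochberg adjustment over 14589 genes and a threshold of 0.05. Fold changes on this scale are too small for low genes. The procedure was tested on simulated data with fold changes larger than those of the members and no shift shared by genes within a library. That test does not show what the fit can detect in these libraries.

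The members, lists and tests were chosen with earlier results of these data known. The naming rule took Bcas2, the most abundant member and the 3 with the smallest p of each complex, tissue forms and their partners, the subunit c genes, members below the filter and the 2 genes with the smallest p of each related list. Symbols of 4 assembly factors were not matched. Pseudogenes were assigned by a shared protein entry in the table's descriptions. Promoters came from RefSeq. Values of 1 member are not reported here by name, though it is included in the counts and medians.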

Additional observations from a re-analysis of the deposited data

How the results depend on the processing

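Over 15 alternative settings, 31 named genes gave 460 fold changes, of which 445 kept their direction and 15 turned, and 0 of these genes passed an adjusted p under 0.05 in any setting. With the length trend removed Cox6b2 turned to -0.076, Sdhb to -0.015 and Sdhc to -0.046, in TPM Sdha turned to -0.040 and Sdhc to -0.032, and with voom Atp5g2 turned to 0.0052. Leaving out a library gave ranges that crossed 0 for Atp5g2 (-0.10 without cKO replicate 2 to 0.013 without WT replicate 3), Cox6b2 (-0.10 without WT replicate 1 to 0.25 without cKO replicate 3), Ndufa4l2 (-0.65 without WT replicate 3 to 0.39 without WT replicate 1), Sdha (-0.034 without WT replicate 1 to 0.12 without WT replicate 3), Sdhb (-0.00018 without cKO replicate 2 to 0.19 without cKO replicate 3) and Sdhc (-0.019 without cKO replicate 2 to 0.11 without WT replicate 3). Non-overlapping members higher in cKO numbered 2 with the length trend removed (against 4.17% of all genes), 3 in TPM (2.34%) and 3 with voom (5.75%), and 1 to 35 leaving out a library; those lower numbered 1 with the length trend removed (2.86%), 1 in TPM (5.95%) and 0 to 3 leaving out a library. Members at an unadjusted p under 0.05 numbered 0 to 15 higher and 0 to 1 lower leaving out a library, with the shares of all genes given above, and 1 lower with the length trend removed (1.17%). Deviations of same-numbered cKO and WT replicates correlated at 0.22, 0.01 and -0.03. With 3 libraries a group, such correlations cannot show whether the numbers pair the samples. A replicate block gave 2 members higher at an unadjusted p under 0.05 (against 1.83% of all genes) and changed no adjusted call. Over all genes the adjusted calls were 0 to 1 leaving out a library, and the unadjusted 443 became 254 with a filter at 5 FPKM, 1147 with none and 253 to 1056 leaving out a library. The cause was not tested. The other settings, a pseudocount of 0.1, median-of-ratios scaling, both filters, and the addition of pseudogene rows, which was chosen after seeing the data, kept the counts of members past each threshold. Bcas2 kept its direction and an unadjusted p under 0.05 in all 14 settings run for it. Intervals of 0.43 to either side limit what 3 libraries a group can show, and members with under 20 reads carry counting error beyond that.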
